A study of Mus musculus with 24 samples.

Results

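Cholesterol was fed on top of a pair of base diets, and the comparison described here asks whether the liver transcriptome responded to it differently on each. It is a difference of contrasts in counts of RNA reads. The effect of cholesterol in high sucrose (HS_Chol minus HS, the sucrose arm) was taken minus the effect in cholic acid (Chol_CA minus CA, the cholic acid arm). A positive log2 difference therefore means that cholesterol moved a gene further up, or less far down, with sucrose than with cholic acid. The comparison rests on 16 of the 20 libraries that could be matched to a diet, out of 24 labelled samples, and on 12595 of 34436 gene symbols that passed a filter on low counts.

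The tissue was whole liver from C57BL/6 wild types, which were 8 to 10 weeks old when the diets began and ate them for 8 weeks; the labels give no sex. The groups were high sucrose (HS, 5 libraries), high sucrose with 2% cholesterol (HS_Chol, 3 libraries for 4 labelled samples), cholic acid (CA, 4) and 2% cholesterol with cholic acid (Chol_CA, 4). Normal chow (NC, 4) entered the fit for the spread between libraries and is quoted as a reference level. The doses of sucrose and cholic acid are not in the labels, and neither cholic acid diet is labelled as holding added sucrose. One sample titled as HS carries normal chow in its diet field; it could not be tied to a library, so all 5 HS libraries were kept and each was left out in turn. The arms share no library with each other. The labels number the livers without saying that they are separate animals, so p-values measure the spread between these samples.

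Cholesterol reaching the liver is sensed in opposite directions by SREBP2, which drives the genes of cholesterol synthesis when sterols are scarce, and by LXR, which drives sterol export when oxysterols are plentiful. Cholic acid is a primary bile acid. It raises the uptake of cholesterol from the gut and, through FXR, represses the liver's own bile acid synthesis, and bile acids also act on PXR, a receptor that together with CAR controls drug-metabolizing enzymes. PPARalpha controls fatty acid oxidation.

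Promoter sequence is shown for 1 opposite mover of each direction, because in each a repeat of the nuclear receptor binding unit was found in the window. The windows are RefSeq's on GRCm38.p6, each running from 250 bases before to 50 bases after the gene's start, and both strands were searched. Cyp3a11 (chr5:145879805-145880104, minus strand), which rose with cholesterol in sucrose and fell in cholic acid, held a direct repeat spaced by 4 bases, searched as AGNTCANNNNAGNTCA. Bco1, listed under its older name Bcmo1 (chr8:117095615-117095914, plus strand), moved the other way and held AGGTCANAGGTCA on the opposite strand. Capitals mark the match, which begins 172 bases before the start in Cyp3a11 and 56 bases before it in Bco1.
Cyp3a11: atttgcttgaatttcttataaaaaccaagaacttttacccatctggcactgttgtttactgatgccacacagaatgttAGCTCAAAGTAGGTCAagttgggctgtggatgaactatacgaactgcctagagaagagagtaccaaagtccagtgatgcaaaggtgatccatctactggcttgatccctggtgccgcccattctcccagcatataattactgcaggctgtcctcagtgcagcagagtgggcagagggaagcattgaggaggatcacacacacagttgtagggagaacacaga
Bco1: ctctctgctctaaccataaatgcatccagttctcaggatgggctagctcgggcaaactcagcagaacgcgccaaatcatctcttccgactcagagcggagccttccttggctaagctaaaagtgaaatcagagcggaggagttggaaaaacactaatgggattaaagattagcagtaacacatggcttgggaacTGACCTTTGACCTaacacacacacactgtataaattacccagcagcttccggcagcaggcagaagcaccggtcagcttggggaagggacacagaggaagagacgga
Of 32851 promoter windows of this length, 41 (0.125%) held the first motif and 13 (0.0396%) the second. The single repeat unit AGGTCA, which is part of the second motif and of some matches to the first, was in 5340 windows (16.3%). Of the 29 opposite movers defined below that no gene overlaps, 22 had a window, and 5 of these held the unit: Bco1, Cd36, Cyp2c29, Cyp3a11 and Cyp3a44. A match describes letters only.

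Libraries held 6110484 to 10244277 reads. The 8 light-strand mitochondrial tRNA genes face abundant heavy-strand mRNAs, and a read counted on the opposite strand would fall on them. Per 1000000 reads of 12 such mRNAs they had 673 to 900 reads in HS_Chol, against 8.95 to 83.4 in all other diets. Genes were therefore also counted without the 32.9% of tested genes that a gene on the opposite strand overlaps or that were not found in the annotation. Relative to the mean of all libraries, levels fell with transcript length in HS_0, HS_1, HS_2, HS_Chol_0, CA_0, Chol_CA_0, Chol_CA_1 and NC_3, and rose with it in the other 12 libraries. Libraries were sorted by the sign of this rank correlation alone. It was weak in HS_Chol_0 (−0.0373) and CA_3 (0.0413), while it reached −0.388 in NC_3 and 0.356 in Chol_CA_3. As a check of the tissue, 20 hepatocyte identity genes summed to 127816 to 146409 CPM in HS and 106986 to 120847 in HS_Chol. They summed to 114886 to 148119 CPM in CA and 93395 to 105979 in Chol_CA. Within each arm the libraries with cholesterol thus lay below those of the base diet. Markers of tissues other than liver summed to 113 to 281 CPM over the 4 diets, with 7 of 22 at 0 reads throughout.

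Cholesterol had a different effect on the base diets for 756 of 12595 genes (6.00%) by edgeR's quasi-likelihood test at a Benjamini-Hochberg adjusted p under 0.05. For 445 genes (3.53%) the difference was positive and for 311 (2.47%) negative. Of the positive ones 193, or 43.4%, are overlapped or not annotated, against 23.2% of the negative ones. Among the 8445 genes that are neither, 252 (2.98%) were positive and 239 (2.83%) negative, with 63 rising (0.746%) and 58 falling (0.687%) in the sucrose arm and 1246 (14.8%) and 678 (8.03%) in the cholic acid arm. In the sucrose arm 283 genes were called (2.25%), of which 201 rose (1.60%) and 82 fell (0.651%). Of the 201 that rose, 138 (68.7%) are overlapped or not annotated, and the part in this of the tRNA reads that set HS_Chol apart was not tested. In the cholic acid arm 2676 were called (21.2%), of which 1693 rose (13.4%) and 983 fell (7.80%). Of the 756, 552 were called only in the cholic acid arm, 108 only in the sucrose arm, 52 in both and 44 in neither. The median size of the difference among them was 1.58 on the log2 scale. The count of negative differences turned on single libraries: it was 608 without CA_0, 130 without CA_2, 156 without CA_3, 191, 136 and 204 without HS_Chol_0, HS_Chol_1 or HS_Chol_2, and 187 without Chol_CA_0. That of positive ones was 707 without CA_0.

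Of 95 genes called in both arms, 48 moved in opposite ways, 20 rose in both and 27 fell in both. The 48 made up 17% of the calls of the sucrose arm and 1.79% of those of the cholic acid arm. In 36 (0.286% of genes tested) cholesterol raised the level with sucrose and lowered it with cholic acid, and in 12 (0.0953%) it did the reverse. Over all genes 1.60% rose with sucrose and 7.80% fell with cholic acid, while 0.651% fell with sucrose and 13.4% rose with cholic acid. Whether either count exceeds what unrelated arms would give was not tested. All 48 also passed for the difference. Among genes not overlapped and found in the annotation the numbers were 19 and 10, and the single genes described in detail below as opposite movers are from these. The first count was 23 without HS_Chol_0. The second was 2 without HS_Chol_1, 5 without HS_Chol_0, 7 without HS_1, 7 without CA_2 and 20 without CA_0.

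**Figure D1:**
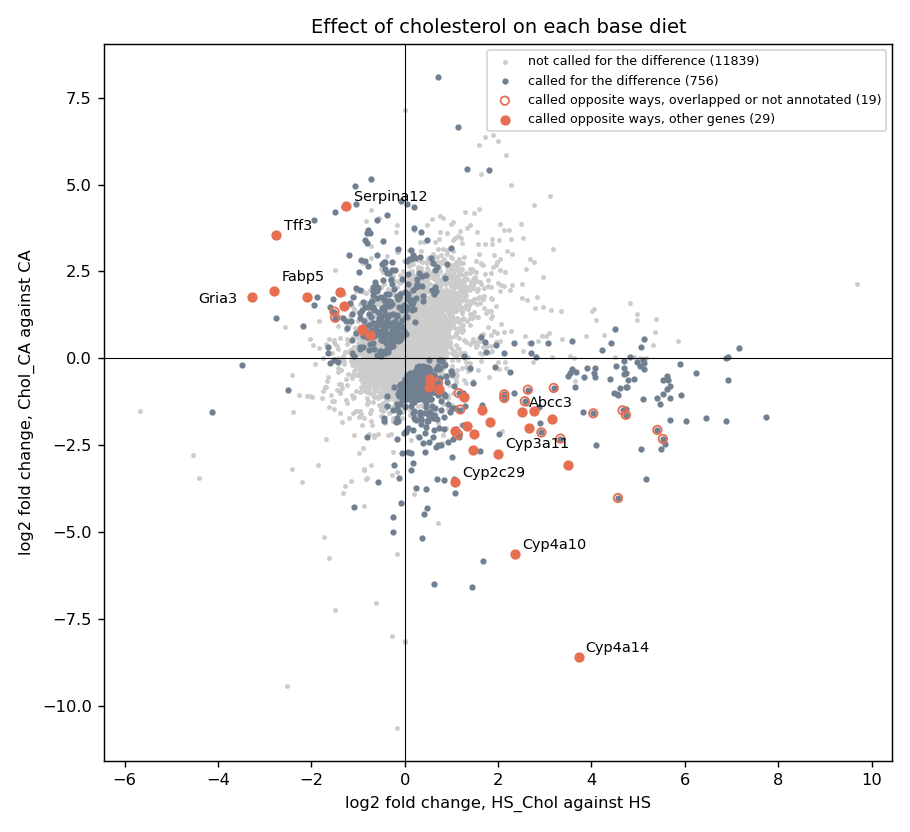
Each point is 1 of 12595 genes, with the log2 fold change of cholesterol in sucrose on the x axis and in cholic acid on the y axis; light grey points are not called, blue-grey points are the 756 called for the difference, and orange circles mark the 48 called opposite ways, open where overlapped or not annotated. The 36 genes at the lower right rose with sucrose and fell with cholic acid, Cyp4a14 lying farthest down, and the 12 at the upper left did the reverse.

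The largest opposite movements were in microsomal fatty acid hydroxylases under PPARalpha. Cyp4a14 (chromosome 4, 115486200 to 115496142, GRCm38, as all coordinates) stood at 109, 8.63, 19.5, 22.2 and 70 CPM (reads per 1000000) in HS_0 to HS_4 and at 550, 943 and 323 CPM in HS_Chol. It stood at 763, 684, 1376 and 809 CPM in CA and at 4.77, 1.83, 1.56 and 1.41 CPM in Chol_CA. Every HS_Chol library lay above every HS library, and every Chol_CA library lay far below every CA library, although CA had begun from a mean of 908 ± 317 CPM (SD, n = 4) and HS from 45.8 ± 42.3 (n = 5). The arm effects were 3.72 ± 0.63 (approximate SE, adjusted p = 0.000968) and −8.60 ± 0.86 (adjusted p = 3.02e-06), and their difference 12.32 ± 1.06 (adjusted p = 4.55e-07). NC held 169, 979, 863 and 548 CPM, all above HS and overlapping the CA libraries. Cyp4a10, a neighbouring paralog whose reads may be shared with Cyp4a14, went from a mean of 82.0 to 424 CPM with sucrose and from 203 to 4.16 CPM with cholic acid (difference 8.00 ± 0.68, adjusted p = 3.97e-07).

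Ehhadh, the bifunctional enzyme of peroxisomal beta-oxidation (chromosome 16, 21761287 to 21787807), held 319, 236, 327, 280 and 342 CPM in HS and 735, 939 and 866 in HS_Chol, then 891, 706, 848 and 708 in CA and 256, 110, 168 and 168 in Chol_CA. The HS and HS_Chol libraries did not overlap, nor did those of CA and Chol_CA, and the HS_Chol and CA levels lay in the same range. The arm effects were 1.49 ± 0.20 (adjusted p = 5.66e-05) and −2.17 ± 0.20 (adjusted p = 1.86e-06), a difference of 3.66 ± 0.28 (adjusted p = 1.15e-07). Acot1, an acyl-CoA thioesterase with close paralogs, went from 5.97 to 16.6 CPM with sucrose and from 15.3 to 2.46 CPM with cholic acid. Cidec, a protein of lipid droplet fusion, rose from 2.70 ± 1.55 to 17.3 ± 11.7 CPM and fell from 5.88 ± 4.48 to 1.44 ± 0.56 CPM. Its difference of 4.68 ± 0.88 (adjusted p = 0.00242) missed the threshold among libraries with a positive length trend (4.54, adjusted p = 0.121).

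Fatty acid oxidation as a list, PPARalpha targets included, had calls of 1 sign. Of 34 tested members 23 were called positive for the difference (67.6%, against 3.53% of all genes) and 0 negative, with a median log2 difference of 1.09 against −0.06 over all genes. With overlapped genes left out it was 16 of 25. In the cholic acid arm 28 fell and 0 rose, and in sucrose 6 rose (Ehhadh, Acot1, Cyp4a10, Cyp4a14, Cidec and Acaa1b, the last overlapped by Dlec1) and 0 fell. Over all genes 7.80% fell in cholic acid and 1.60% rose in sucrose. The mitochondrial members Acadl (sucrose −0.02, cholic acid −1.03) and Hadhb (−0.05 and −1.20) passed for the difference with a sucrose effect near 0. Summed over the list, levels were 17447 to 22836 CPM in HS, 18666 to 21074 in HS_Chol, 13221 to 16997 in CA and 6040 to 8003 in Chol_CA.

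Drug-metabolizing enzymes began low in HS and high in CA, and cholesterol narrowed the gap. Cyp3a11, the main mouse steroid and drug hydroxylase of its family (chromosome 5, 145854426 to 145879964), held 866, 544, 456, 384 and 330 CPM in HS and 2342, 2468 and 1340 in HS_Chol. It held 12062, 13596, 19771 and 15594 CPM in CA and 2820, 1622, 2827 and 1806 in Chol_CA. No libraries overlapped within either arm, and the ranges of the cholesterol diets overlapped each other. The arm effects were 1.99 ± 0.28 (adjusted p = 0.000108) and −2.75 ± 0.29 (adjusted p = 6.81e-06), and the difference was 4.74 ± 0.40 (adjusted p = 3.97e-07). CA lay above HS by 4.89 ± 0.29 on the log2 scale, and Chol_CA differed from HS_Chol by 0.15 ± 0.30 (adjusted p = 0.804); both contrasts use libraries of the difference itself. Its promoter is the first of the pair printed above. Cyp2c29, a hydroxylase with many paralogs, rose from 702 ± 150 to 1488 ± 215 CPM and fell from 5960 ± 2672 to 503 ± 120 CPM (difference 4.65 ± 0.36, adjusted p = 1.15e-07).

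Ephx1, microsomal epoxide hydrolase (chromosome 1, 180976210 to 181020904), held 220, 209, 276, 171 and 233 CPM in HS, 765, 646 and 700 in HS_Chol, 984, 1038, 1789 and 1606 in CA, and 597, 485, 453 and 386 in Chol_CA. Within each arm the groups were apart, and the level with cholesterol lay between the base diets on either side. The effects were 1.67 ± 0.20 (adjusted p = 2.17e-05) and −1.50 ± 0.20 (adjusted p = 6.44e-05). Abcc3, a basolateral export pump for bile acid and drug conjugates (chromosome 11, 94343295 to 94392997), held 130, 79.7, 56.6, 87.5 and 64.5 CPM in HS and 541, 496 and 392 in HS_Chol. In CA it held 316, 571, 1078 and 939 CPM and in Chol_CA 310, 210, 279 and 190, so CA_0 was only just above the highest Chol_CA library. Its difference was 4.06 ± 0.43 (adjusted p = 6.12e-06). Gsta2, a glutathione transferase with a near-identical paralog, rose from 0.858 ± 0.692 to 5.77 ± 1.11 CPM and fell from 36.1 ± 14.8 to 12.6 ± 8.51 CPM (difference 4.28 ± 0.81, adjusted p = 0.0025).

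Of 20 tested genes of drug metabolism under CAR and PXR, 15 were positive for the difference and 0 negative (75%, against 3.53% of all genes), with a median log2 difference of 3.58. With overlapped genes left out 12 of 17 were positive. In sucrose 5 rose (Cyp2c29, Cyp3a11, Cyp3a44, Gsta2 and Por), where 1.60% of all genes did, and in cholic acid 18 fell, where 7.80% did. Ces2a, a carboxylesterase, stood for those that passed in cholic acid only: its sucrose effect was 0.68 ± 0.22 (adjusted p = 0.149), from 108 to 174 CPM, and its cholic acid effect −3.49 ± 0.24 (adjusted p = 4.80e-08), from 1337 to 119 CPM. The summed level of the list was 3086 to 4754 CPM in HS, 7165 to 9199 in HS_Chol, 26309 to 57365 in CA and 6084 to 13648 in Chol_CA. Of 21 NRF2 and glutathione genes 9 were positive (42.9%, against 3.53% of all genes) and 1 negative (4.76%, against 2.47%), the latter being G6pdx, the entry enzyme of the pentose phosphate pathway (−2.85), which overlaps Ikbkg on the opposite strand. Genes outside these lists were also among the 19. Cd36, a fatty acid and lipoprotein scavenger receptor, went from 26.9 ± 13.4 to 95 ± 54.6 CPM with sucrose, where HS_Chol_2 at 45.9 lay below HS_0 at 48.2, and from 177 ± 74.0 to 49.2 ± 8.75 CPM with cholic acid (difference 3.66 ± 0.55, adjusted p = 0.000352). Others chosen after their values were seen were Aldh3a2, a fatty aldehyde dehydrogenase (difference 3.28 ± 0.31), and Aox1, aldehyde oxidase (2.39 ± 0.28).

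**Figure D2:**
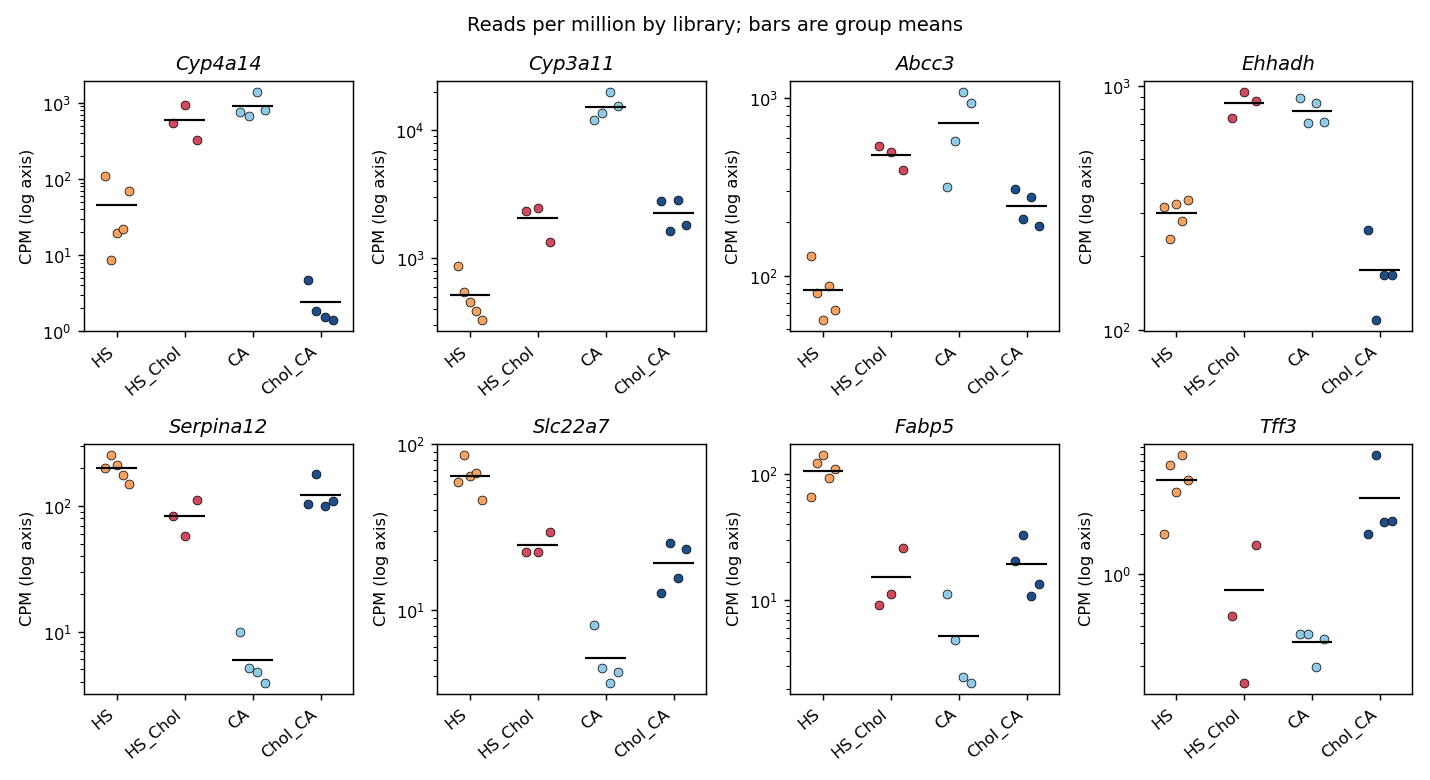
Each panel shows 1 gene, with CPM per library on a log axis, each dot a library and each bar the mean of its diet. In the upper row Cyp4a14, Cyp3a11, Abcc3 and Ehhadh rose from HS to HS_Chol and fell from CA to Chol_CA, and in the lower row Serpina12, Slc22a7, Fabp5 and Tff3 fell and then rose.

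The 10 genes that cholesterol lowered with sucrose and raised with cholic acid began high in HS and low in CA. They were chosen by arm effects that use the same HS and CA libraries, so the choice itself favours such a start. Serpina12, the secreted serine protease inhibitor vaspin (chromosome 12, 104028769 to 104044443), held 203, 255, 214, 176 and 150 CPM in HS and 82.7, 57.7 and 112 in HS_Chol, then 9.87, 5.18, 4.74 and 3.93 in CA and 104, 180, 101 and 109 in Chol_CA. Every HS_Chol library was below every HS library, and Chol_CA was above CA without overlap. The effects were −1.25 ± 0.33 (adjusted p = 0.0498) and 4.38 ± 0.36 (adjusted p = 2.58e-07), and the difference was −5.63 ± 0.49 (adjusted p = 5.03e-07). Slc22a7, the organic anion transporter OAT2 (chromosome 17, 46432183 to 46438457), held 59.4, 85.7, 63.7, 67.2 and 46.0 CPM in HS and 22.2, 22.2 and 29.5 in HS_Chol. In CA it held 8.11, 4.47, 3.65 and 4.25 CPM and in Chol_CA 12.7, 25.4, 15.6 and 23.3. No libraries overlapped within an arm, and NC, at 24.9 CPM, lay near the HS_Chol mean of 24.7. The difference was −3.30 ± 0.40 (adjusted p = 2.48e-05).

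Fabp5, a fatty acid binding protein with processed copies elsewhere in the genome, held 65.6, 123, 142, 94.0 and 111 CPM in HS and 9.26, 11.2 and 25.9 in HS_Chol. In CA it held 11.2, 4.83, 2.47 and 2.23 CPM and in Chol_CA 20.4, 33.2, 10.8 and 13.6, where Chol_CA_2 lay just under CA_0. Its effects were −2.79 ± 0.55 (adjusted p = 0.00491) and 1.93 ± 0.52 (adjusted p = 0.0114), a difference of −4.72 ± 0.75 (adjusted p = 0.000569). Tff3, a trefoil peptide of mucous epithelia (chromosome 17, 31125306 to 31129646), held 1.99, 6.52, 4.08, 7.76 and 5.10 CPM in HS and 0.479, 0.151 and 1.64 in HS_Chol. It held 0.353, 0.353, 0.197 and 0.319 CPM in CA and 1.99, 7.79, 2.44 and 2.49 in Chol_CA, with Chol_CA_1 standing well above the rest. Its difference was −6.28 ± 0.95 (adjusted p = 0.000356).

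The remaining genes of this direction had lower levels or smaller effects. Tsc22d1, a TGF-beta-inducible regulator, fell from 132 ± 31.9 to 53.9 ± 6.08 CPM and rose from 20.3 ± 11.1 to 57.2 ± 15.6 CPM, so that both cholesterol diets ended near the same level (difference −2.79 ± 0.41, adjusted p = 0.000304). The transcription factor gene Mycn fell from 5.40 ± 0.734 to 1.26 ± 0.398 CPM and rose from 0.400 ± 0.294 to 1.38 ± 0.526 CPM. Gria3, an AMPA-type glutamate receptor subunit best known from neurons, fell from 5.70 ± 2.47 to 0.576 ± 0.156 CPM and rose from 0.228 ± 0.145 to 0.781 ± 0.0959 CPM. Gramd1c, of a family of sterol transfer proteins, had a difference of −1.76 ± 0.23 (adjusted p = 6.68e-05). It fell from 39.9 ± 3.86 to 21.2 ± 2.28 CPM and rose from 14.6 ± 3.39 to 26.2 ± 2.86 CPM. Bcmo1, the enzyme that cleaves beta-carotene, whose promoter is the second printed above, had the same shape on a smaller scale: 13.0 ± 2.6 to 6.93 ± 0.926 CPM with sucrose (adjusted p = 0.0496) and 6.29 ± 1.82 to 11 ± 1.39 CPM with cholic acid (adjusted p = 0.0117). Slc46a3, a lysosomal transporter, had a difference of −1.41 ± 0.26.

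**Figure D3:**
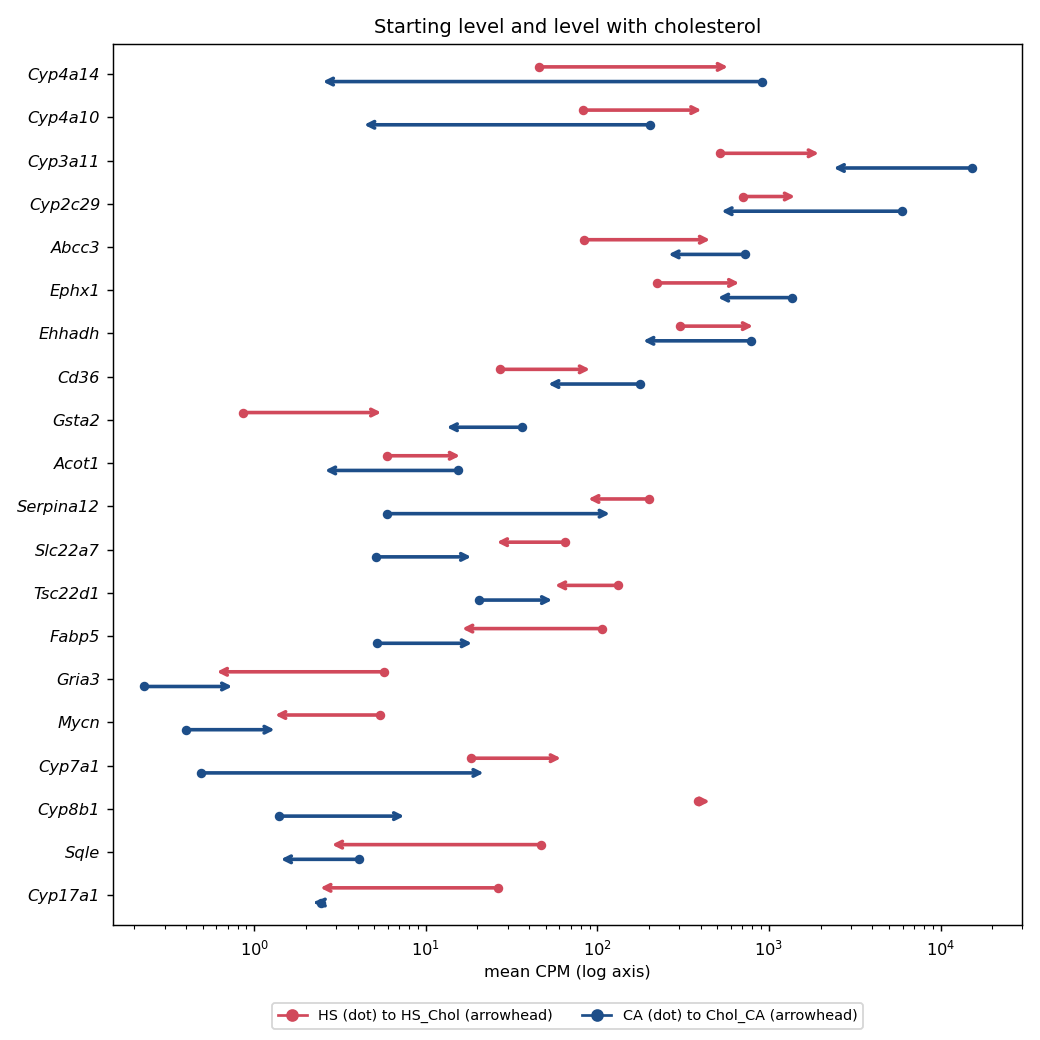
For 20 genes the dot marks the mean CPM of the base diet and the arrowhead the mean with cholesterol, on a log axis, in red for sucrose and blue for cholic acid. Arrows of the first 10 genes point opposite ways from a low HS and a high CA start, those of the next 6 start high in HS and low in CA, and the last 4 are Cyp7a1, Cyp8b1, Sqle and Cyp17a1. The opposite movers were chosen with the same libraries, which favours such starts.

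Among the 52 genes called in both arms and for the difference, 4 kept 1 direction: Cyp7a1, Sqle, Fdps and Abcg5. Cyp7a1, which controls the first and limiting step from cholesterol to bile acids (chromosome 4, 6265612 to 6275633), held 12.1, 13.4, 12.1, 37.0 and 16.8 CPM in HS and 50.3, 69.8 and 72.9 in HS_Chol, then 0.118, 0.236, 1.38 and 0.212 in CA and 27.0, 22.5, 11.7 and 30.1 in Chol_CA. It rose in both arms without overlap, by 1.81 ± 0.38 (adjusted p = 0.00955) from 18.3 CPM and by 5.43 ± 0.56 (adjusted p = 4.21e-06) from 0.487 CPM. The difference was −3.62 ± 0.71 (adjusted p = 0.00357). It missed the threshold among libraries with a positive length trend (−3.58, adjusted p = 0.0672). Chol_CA, at 22.8 CPM, still lay below HS_Chol, at 64.3. Cyp8b1, the sterol 12-alpha-hydroxylase that makes cholic acid, rose in cholic acid from 1.40 ± 0.603 to 7.85 ± 3.48 CPM (2.45 ± 0.33, adjusted p = 5.47e-05). In sucrose it stood at 384 ± 55.7 and 474 ± 53.9 CPM (0.30 ± 0.25, adjusted p = 0.648), and the difference was −2.15 ± 0.42 (adjusted p = 0.00336). Of 16 bile acid synthesis genes 4 were positive (Acox2, Akr1d1, Cyp46a1 and Hsd17b4) and 4 negative (Cyp7a1, Cyp8b1, Cyp7b1 and Akr1c6) for the difference. That was 25% in each direction, against 3.53% and 2.47% of all genes.

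A few cholesterol synthesis genes fell further with sucrose, from a higher start. Sqle, squalene epoxidase (chromosome 15, 59315077 to 59331192), held 27.6, 31.8, 50.8, 65.3 and 60.6 CPM in HS and 3.03, 2.27 and 2.79 in HS_Chol. It held 1.88, 5.65, 1.97 and 6.80 CPM in CA and 1.19, 0.917, 2.05 and 1.30 in Chol_CA, where Chol_CA_2 lay above CA_0 and CA_2. The effects were −4.13 ± 0.42 (adjusted p = 2.98e-06) and −1.54 ± 0.42 (adjusted p = 0.0124), a difference of −2.58 ± 0.60 (adjusted p = 0.0139). Fdps, farnesyl diphosphate synthase, fell from 110 ± 18.5 to 19.4 ± 3.97 CPM and from 17.8 ± 4.40 to 9.41 ± 3.54 CPM. Dhcr7, the last enzyme of the Kandutsch-Russell branch, fell with sucrose from 118 ± 9.99 to 44.3 ± 4.70 CPM (−1.42 ± 0.20, adjusted p = 0.000106) and stood at 41.4 ± 10.4 and 38.2 ± 4.47 CPM with cholic acid (−0.11 ± 0.18, adjusted p = 0.725). Of 24 tested genes of cholesterol synthesis and SREBP2 targets 15 fell in sucrose and 12 in cholic acid, 0 rose in either, and 4 passed for the difference, all negative (Mvk, Fdps, Sqle and Dhcr7). Over all genes tested 0.651% fell in sucrose, 7.80% fell in cholic acid and 2.47% were negative for the difference. Among libraries with a positive length trend 10 members of the list passed. The summed level was 3152 to 4032 CPM in HS, 1733 to 2413 in HS_Chol, 1565 to 2169 in CA and 920 to 1530 in Chol_CA.

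Abcg5, a subunit of the canalicular sterol exporter, was measured with reads that its partner Abcg8 may share through overlap on the other strand. It held 117, 116, 83.8, 86.5 and 60.6 CPM in HS, 317, 299 and 244 in HS_Chol, 217, 230, 188 and 199 in CA, and 315, 252, 299 and 398 in Chol_CA. It rose without overlap in both arms, by 1.63 ± 0.18 (adjusted p = 9.58e-06) and 0.60 ± 0.18 (adjusted p = 0.0224). Its difference of 1.03 ± 0.26 (adjusted p = 0.0227) missed the threshold without HS_Chol_0 (0.96, adjusted p = 0.0631). Abcg8 had a difference of 1.26, and of 17 LXR targets these 2 were positive and Pltp, phospholipid transfer protein, negative (−2.48, overlapped by Ctsa), with a list median of −0.24. Among the 12 LXR targets with no overlap 0 were positive and 0 negative. Lpl, lipoprotein lipase, rose in both arms, by 1.96 ± 0.22 (adjusted p = 9.58e-06) and 1.5 ± 0.22 (adjusted p = 0.000122), with a difference of 0.46 ± 0.31 (adjusted p = 0.415). Among 25 genes of fatty acid synthesis, Fasn (difference −0.46 ± 0.63, adjusted p = 0.705) and Scd1 (0.23 ± 0.48, adjusted p = 0.817) did not pass, while Me1, malic enzyme, was positive (1.46) and Pklr, pyruvate kinase, negative (−1.21). Both are overlapped on the opposite strand, and 4% of the list in each direction is close to the 3.53% and 2.47% of all genes.

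Among genes whose level differs between the sexes in mouse liver, those called for the difference were negative where male-biased and mostly positive where female-biased. Of 22 male-biased genes 10 were negative for the difference and 0 positive (45.5%, against 2.47% of all genes; median −2.40). In cholic acid 14 rose, where 13.4% of all genes did, and 0 fell. In sucrose 0 were called, where 2.25% of all genes were (median of the list −0.27). Susd4, a complement regulator (chromosome 1, 182763860 to 182896591), held 25.8, 36.8, 29.0, 35.0 and 43.0 CPM in HS and 14.1, 13.3 and 29.5 in HS_Chol, then 0.235, 0.236, 0.592 and 0.212 in CA and 1.06, 2.41, 3.42 and 7.25 in Chol_CA. Its rise in cholic acid (3.39 ± 0.63, adjusted p = 0.000837) began from almost no reads and ended well below any HS library. Mup11 and Mup7, major urinary proteins with near-identical paralogs that share reads, had means of 494 and 200 CPM in HS, 2.02 and 0.571 in CA, and 62.9 and 12.1 in Chol_CA. Their differences of −6.04 ± 1.12 (adjusted p = 0.00218) and −5.66 ± 1.12 (adjusted p = 0.00363) missed the threshold among libraries with a positive length trend (adjusted p = 0.0662 and 0.0765).

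Of 14 female-biased genes 6 were positive (Abcd2, Acot3, Cux2, Cyp3a44, Fmo2 and Prom1) and 2 negative (Cyp17a1 and Ntrk2), or 42.9% and 14.3% against 3.53% and 2.47% of all genes. With overlapped genes left out 4 of 10 were positive and 2 negative. Acot3, Cyp3a44 and Prom1 also belong to the lists of PPARalpha targets, drug metabolism and bile duct markers, in that order. Cux2, a transcription factor of the female liver, held 0.470, 8.83, 43.6 and 22.3 CPM in CA and 0.530, 0.688, 0.195 and 0.649 in Chol_CA, so CA_0 lay among the cholesterol libraries and the other CA libraries far above them. In HS and HS_Chol its means were 0.570 and 0.731 CPM. Its difference of 5.54 ± 1.51 (adjusted p = 0.033) missed the threshold without any 1 of the 3 HS_Chol libraries (0.0577, 0.157 and 0.0726), without Chol_CA_1 (0.0543) and without Chol_CA_2 (0.051). In all it missed in 10 of 22 alternative fits, among them no filter on low counts (0.0856), the 4 diets alone (0.0608), a positive length trend (0.0587) and a term for that trend (0.127). Outside the list, the hydroxylase Cyp2a22, which has paralogs, was at 9.87, 23.7, 91.8 and 33.8 CPM in CA and at 0.709 ± 0.419 in Chol_CA (difference 7.52 ± 1.02, adjusted p = 0.000103). The female-biased Cyp17a1, a steroid hydroxylase, went against its list. It fell with sucrose from 26.2 ± 9.12 to 2.31 ± 0.402 CPM (−3.49 ± 0.40, adjusted p = 1.04e-05) and stood at 2.46 ± 0.532 CPM in CA and 2.14 ± 0.378 CPM in Chol_CA, a change of −0.19 ± 0.38 (adjusted p = 0.788). The labels give no sex, and whether the groups had the same mix of sexes was not tested.

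**Figure D4:**
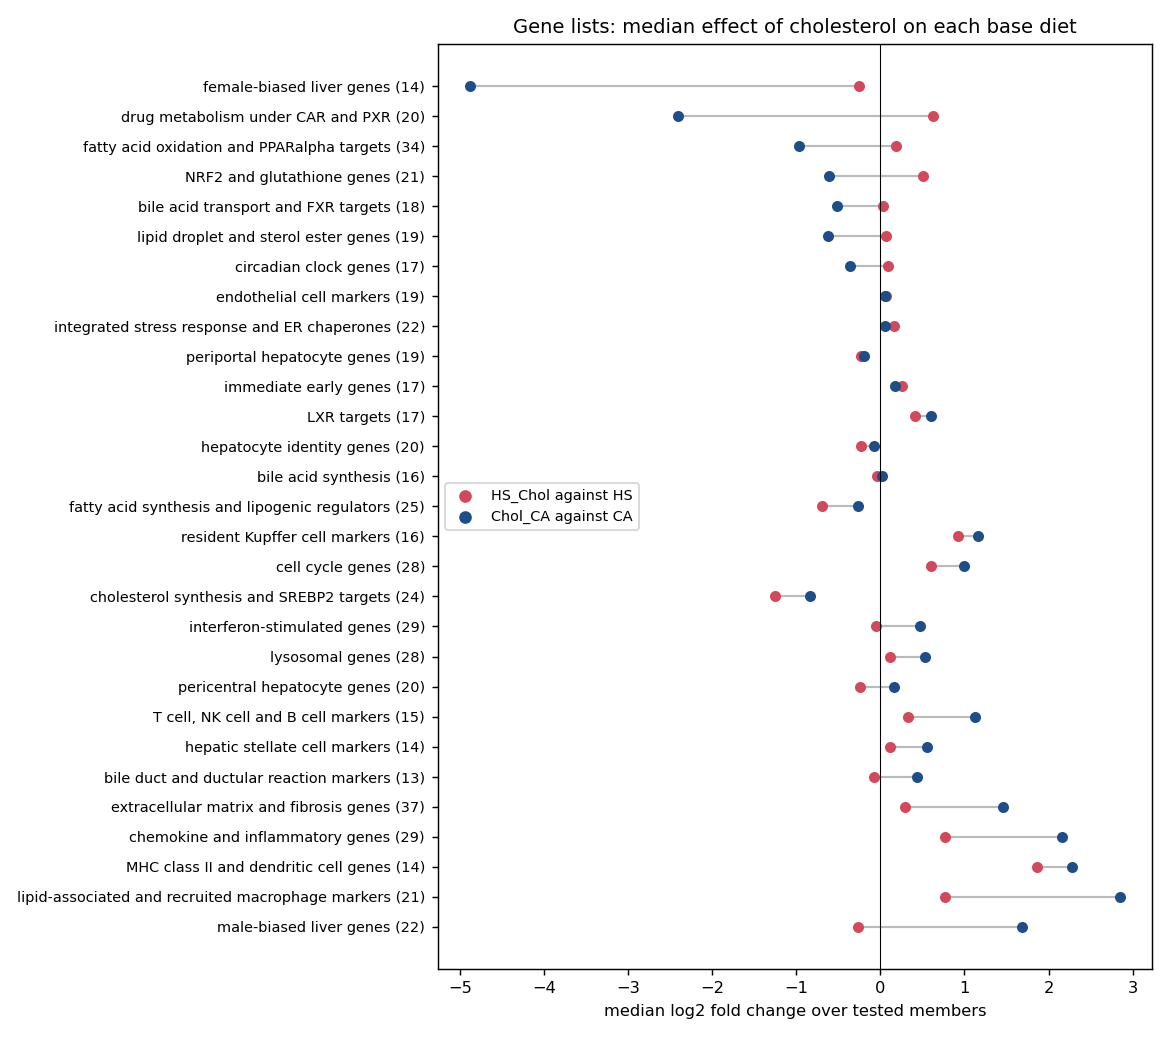
For each gene list with at least 10 tested members (the number in parentheses), the red dot is the median log2 fold change of cholesterol in sucrose and the blue dot that in cholic acid. Lists at the top, such as drug metabolism (0.62 and −2.41) and PPARalpha targets (0.19 and −0.97), had the lower median in cholic acid, and those at the bottom, such as macrophage markers (0.77 and 2.85) and matrix genes (0.29 and 1.46), the higher.

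Many macrophage, inflammatory and matrix genes rose with cholesterol in cholic acid, and a smaller number passed for the difference. Whole liver was sequenced, so more cells of a type and more RNA per cell cannot be told apart. Gpnmb, a glycoprotein of lipid-laden macrophages (chromosome 6, 49036546 to 49070929), held 0.569, 0.652, 0.314, 0.408 and 0.300 CPM in HS and 2.08, 0.907 and 0 in HS_Chol. It held 0.940, 0.589, 2.07 and 1.27 CPM in CA and 176, 165, 108 and 59.7 in Chol_CA, where all libraries stood far above any other diet. Its effects were 1.13 ± 0.81 (adjusted p = 0.58) and 6.66 ± 0.46 (adjusted p = 4.80e-08), a difference of −5.52 ± 1.06 (adjusted p = 0.00282; among libraries with a positive length trend 0.0793). Trem2, a lipid receptor of the same cells, was at 0.501 ± 0.516 and 0.580 ± 0.0911 CPM in HS and HS_Chol and rose from 0.864 ± 0.398 to 12.0 ± 7.41 CPM in cholic acid. Its difference of −3.57 ± 0.99 (adjusted p = 0.0371) missed the threshold when HS_0, HS_4, CA_1, CA_2, CA_3, Chol_CA_0, Chol_CA_1 or any HS_Chol library was left out (0.0594 to 0.141). Of 21 markers of lipid-associated and recruited macrophages 7 were negative (33.3%, against 2.47% of all genes) and 1, Cd36, positive. In cholic acid 17 rose, where 13.4% of all genes did, and in sucrose 2 rose (Lpl and Cd36) and 1 fell (Fabp5). Without HS_Chol_1, HS_Chol_2 or CA_2 only 2 were negative, 4 without CA_3 or Chol_CA_0, and 11 without Chol_CA_3. The summed level of the list was 643 to 752 CPM in HS, 684 to 885 in HS_Chol, 1010 to 1305 in CA and 1587 to 4763 in Chol_CA.

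Other lists of non-parenchymal cells and inflammation varied in their calls for the difference. Resident Kupffer cell and endothelial markers had 0. Negative calls made up 10.3% of chemokine and inflammatory genes, 14.3% of stellate cell markers and 21.6% of matrix and fibrosis genes. Of 16 resident Kupffer cell markers 8 rose in cholic acid, 0 in sucrose, and 0 passed for the difference, with arm medians of 1.16 and 0.92. Their sum was 309 to 581 CPM in HS, 413 to 892 in HS_Chol, 635 to 1156 in CA and 1290 to 3407 in Chol_CA. Of 29 chemokine and inflammatory genes 24 rose in cholic acid and 0 in sucrose, and Ccl6, Cxcl14 and Cxcl16 were negative for the difference; Cxcl14 went from 1.48 ± 0.740 to 13.1 ± 5.02 CPM in cholic acid (difference −3.28 ± 0.58, adjusted p = 0.00138). Of 37 matrix and fibrosis genes 31 rose in cholic acid, 0 in sucrose, and 8 were negative for the difference (Col1a2, Col3a1, Col6a3, Col15a1, Fbn1, Lum, Loxl1 and Mmp14). Of all genes 13.4% rose in cholic acid, 1.60% rose in sucrose and 2.47% were negative for the difference. With overlapped genes left out 6 of 23 matrix and fibrosis genes were negative. The count of negative matrix genes was 15 without CA_0 and 3 without CA_2, CA_3 or HS_Chol_0, 4 without HS_Chol_2 and 5 without HS_Chol_1 or Chol_CA_0. Col1a1, the major fibrillar collagen chain, held 26.6, 7.30, 5.13 and 9.67 CPM in CA and 159, 188, 49.0 and 36.9 in Chol_CA, the first 2 of which have a negative length trend. Its difference of −2.34 ± 0.77 (adjusted p = 0.081) did not pass, though it did without CA_0 (−3.06, adjusted p = 0.0101) or Chol_CA_3 (−2.61, adjusted p = 0.0373) and by DESeq2's Wald test on all libraries (−2.34, adjusted p = 0.026). Lum, the keratan sulfate proteoglycan lumican, did pass (−2.11 ± 0.45, adjusted p = 0.00638). Of 14 stellate cell markers 2 were negative, and of 19 endothelial markers 0 were called in either arm or for the difference.

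Several large differences fell outside these groups. Scara5, a ferritin receptor, was at 17.8 ± 14.3 and 11 ± 9.07 CPM in HS and HS_Chol and rose from 0.854 ± 0.848 to 30.1 ± 9.99 CPM in cholic acid (difference −5.87 ± 1.09, adjusted p = 0.00229). Vldlr, the VLDL receptor, fell from 7.55 ± 5.19 to 0.501 ± 0.391 CPM in cholic acid and was at 1.28 ± 0.800 and 2.70 ± 1.63 CPM in sucrose (difference 4.95 ± 0.91, adjusted p = 0.00214). H2-M2, a nonclassical MHC class I gene, had 3 reads each in HS and HS_Chol. It had 1 read in CA against 415 in Chol_CA, which is 424 times as much after scaling for depth (exact 95% interval for counting error, 75.7 to 16787). Its difference of −7.39 ± 2.11 (adjusted p = 0.0428) missed the threshold in 14 of 26 alternative fits. Ces1d, a triglyceride and sterol ester hydrolase, fell in cholic acid from 669 ± 231 to 119 ± 43.8 CPM and stood at 234 ± 44.1 and 385 ± 7.54 CPM in sucrose (difference 3.21 ± 0.36, adjusted p = 1.24e-05). Trib3, a stress-response pseudokinase (2.13 ± 0.61, adjusted p = 0.0437), missed the threshold in 16 of 26. The light-strand tRNA gene mt-Tp, itself part of the strand measure, was positive at 6.28 ± 0.71, with 36.1 to 43.8 CPM in HS_Chol and at most 3.93 in the other libraries of these diets.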

How the data were processed

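Values are raw counts of reads per gene symbol, as the authors deposited them in 1 table. Per the labels' protocols, 100 ng of total RNA went into stranded TruSeq libraries read from 1 end over 50 bp; per the submitters' processing notes STAR 2.6.1c aligned the reads to mm10. The strand counted is not given in the sources used here. Columns carry a diet and a number from 0, so 20 were matched to a diet and 3 matched no label and were not used; the sixth labelled diet was not analysed here. Counts were fitted in edgeR 4.0.16 (R 4.3.3): TMM, filterByExpr on diet, robust dispersions (common coefficient of variation 0.235), robust quasi-likelihood, 1 mean per diet over 20 libraries, Benjamini-Hochberg over 12595 genes. CPM is reads per 1000000 of effective library size. Each error on a log2 value is its absolute size divided by the square root of the test's F statistic, an approximate standard error. Errors on CPM are standard deviations. Symbols were placed with GENCODE M21 (GRCm38; 29014 by name, 1876 by an older name, 3546 not found), which may not be the annotation counted on. Intervals cover counting error only.

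The members, the named genes and the 31 gene lists (679 of 681 entries in the table) were chosen with earlier results of these data known. Named genes were up to 10 opposite movers per direction by their smaller arm effect, the 8 largest differences of each sign and the best member per list, all called for the difference, at 5 CPM or more in a diet, not overlapped on the opposite strand and not predicted models. With 15 set genes to which none of these conditions applied they came to 55, a few more under this rule not being reported here; other genes named were chosen after their values were seen. The procedure was tested on simulated counts. Alternatives used DESeq2 1.42.0, other filters, subsets of libraries and each library left out.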

Additional observations from a re-analysis of the deposited data

Results flagged for a closer look

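Each of the 48 named genes called for the difference by edgeR was marked because the effect of cholesterol differed between the base diets by a direct test. On the log2 scale, sucrose arm minus cholic acid arm, the hydroxylases had 12.32 (Cyp4a14), 8.00 (Cyp4a10), 4.90 (Cyp4a31), 4.74 (Cyp3a11), 4.65 (Cyp2c29), 4.79 (Cyp2c38) and 7.52 (Cyp2a22). Other enzymes and transporters with a positive difference had 4.13 (Acot1), 3.66 (Ehhadh), 1.02 (Acox2), 4.28 (Gsta2), 3.16 (Ephx1), 4.17 (Ces2a), 3.21 (Ces1d), 1.09 (Gaa), 4.06 (Abcc3) and 1.03 (Abcg5). Further positive differences were 4.68 (Cidec), 3.66 (Cd36), 4.95 (Vldlr), 5.54 (Cux2), 2.13 (Trib3) and 6.28 (mt-Tp). Negative differences among opposite movers were −6.28 (Tff3), −4.72 (Fabp5), −3.86 (Mycn), −5.02 (Gria3), −3.30 (Slc22a7), −2.79 (Tsc22d1), −5.63 (Serpina12), −1.76 (Gramd1c), −1.72 (Bcmo1) and −1.41 (Slc46a3). Sterol and steroid genes had −3.62 (Cyp7a1), −2.15 (Cyp8b1), −2.58 (Sqle), −1.30 (Dhcr7) and −3.30 (Cyp17a1). The others had −7.39 (H2-M2), −6.04 (Mup11), −5.66 (Mup7), −4.23 (Susd4), −5.87 (Scara5), −5.52 (Gpnmb), −3.57 (Trem2), −3.28 (Cxcl14), −2.11 (Lum) and −3.0 (Cd4).

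HS_Chol, with 3 libraries, was not checked for single outlying libraries, and the sets checked share libraries. Single libraries stood apart from the others of their diet in 22 of 165 sets of 4 or 5 values (13.3%). For independent sets of normal values chance marks about 1 in 20. In HS the libraries set apart were HS_0 for Cyp2c38 (49.7 CPM), Acox2 (170) and Cxcl14 (3.27), HS_1 for Slc46a3 (34.4) and Cd4 (7.82), HS_2 for Pnpla3 (48.9) and HS_3 for Cyp7a1 (37.0). In CA they were CA_0 for Gramd1c (19.6), H2-M2 (0.118, from 1 read), Mup11 (4.58) and Scara5 (2.12), and CA_2 for Dhcr7 (25.9), Susd4 (0.592) and Cyp7a1 (1.38). In Chol_CA they were Chol_CA_0 for Cyp4a14 (4.77), Chol_CA_1 for Tff3 (7.79), Serpina12 (180), Cyp2c38 (4.01) and Mup11 (176), Chol_CA_2 for Cd36 (62.2) and Dhcr7 (44.8), and Chol_CA_3 for Tsc22d1 (80.4).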

How the results depend on the processing

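Over 26 alternatives the 55 named genes gave 1424 differences, of which 1320 kept their direction and side of the threshold, 93 no longer passed, 3 newly passed and 8 reversed. The 8 belong to genes not called: Scd1 (−0.48, −0.44 and −0.05), Fasn (0.44 and 1.78), Lpl (−0.08), Cd5l (0.92) and Nr0b2 (−0.02). At the other end Scd1 reached 1.27 and Fasn −1.55 over all alternatives, and 0.56 and −0.77 with 1 library left out. Every one of the 756 genes kept its sign wherever it was tested. The alternatives refitted all or some of the libraries on which these genes were called, so kept signs are not independent support. Between 59% (without CA_2) and 99.6% (DESeq2's Wald test) of those tested kept their call, leaving aside libraries with a negative length trend alone. That subset was added after the data were seen and leaves HS_Chol_0 and CA_0 alone in their diets. Its share of kept calls is therefore not given, though the totals above include it. Its counts of genes are listed below only as a record. No conclusion is drawn from them, because HS_Chol_0 and CA_0 each stand there for a whole diet. The cause of the moves below was not tested, except that subsets hold fewer libraries or genes. The Wald test gave 476 lower genes, 164 lower in the sucrose arm, 20 that fell in sucrose and rose in cholic acid, and 7 cholesterol synthesis genes. Without a filter 346 rose in the sucrose arm and 4 macrophage markers were lower; with at least 5 CPM in 3 libraries 102 rose there. Without overlapped genes 250 were higher, the sucrose arm had 45 and 35, opposite movers 17 and 6, matrix genes 5. Libraries with a positive length trend gave 839 and 577, 1716 lower in the cholic acid arm and 10 cholesterol synthesis genes; a term for the trend gave 305 and 133 in the sucrose arm. Both restrictions together, also added later, gave 32 and 33 there, 1104 higher in the cholic acid arm, 16 and 5 opposite movers, 5 matrix and 7 cholesterol synthesis genes. Libraries with a negative trend gave 52 and 11, 39 lower in the sucrose arm, 361 and 114 in the cholic acid arm, 7 and 0 opposite movers, 5 PPARalpha targets, 6 CAR and PXR genes, 1 male-biased gene, 2 macrophage markers, and 0 matrix and 0 cholesterol synthesis genes. With 1 library left out the ranges were 318 to 707 higher and 130 to 608 lower genes, 153 to 232 and 33 to 99 in the sucrose arm, 960 to 1939 and 718 to 1279 in the cholic acid arm, 23 to 51 and 2 to 20 opposite movers, 20 to 24 PPARalpha targets, 13 to 18 CAR and PXR genes, 7 to 16 male-biased genes, 2 to 11 macrophage markers, 3 to 15 matrix genes and 3 to 5 cholesterol synthesis genes. The sucrose arm had 53 lower genes without HS_1 and 33, 38 and 49 without HS_Chol_0, HS_Chol_1 or HS_Chol_2; the cholic acid arm had 960 and 1095 higher without CA_2 or CA_3. No paired analysis was possible because the columns carry no replicate number that matches the labels. HS_Chol has 3 libraries, which limits both the sucrose arm and the difference.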

Other observations

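Hepatocyte genes of the pericentral zone, which lies around the central vein, had calls of both signs for the difference of the arms: of 20 tested, the hydroxylases Cyp2c29 and Cyp2c37 were positive, and Glul (glutamine synthetase), Slc1a2, Lgr5, Rhbg and Gulo were negative. That was 10% positive and 25% negative, against 3.53% and 2.47% of all genes. With overlapped genes left out 2 of 16 were positive and 3 negative. Of 19 genes of lipid droplets and sterol esters 6 were positive (31.6%, against 3.53% of all genes) and 0 negative. The 6 were Plin4, Cidec, Soat2, Pnpla2, Ces1d and Fitm2. With overlapped genes left out 4 of 11 were positive. Among 13 bile duct and ductular reaction markers Prom1 and Krt23 were positive (15.4%) and Spp1, Tff3 and Anxa5 negative (23.1%). Of 14 MHC class II and dendritic cell genes 12 rose in cholic acid, 1 rose in sucrose (Cd74) and 0 passed for the difference; their summed level was 124 to 254 CPM in HS, 259 to 1259 in HS_Chol, 192 to 757 in CA and 1618 to 10112 in Chol_CA. Neutrophil markers, of which 4 were tested, all rose in cholic acid, and 0 were called in sucrose or for the difference. Of 28 cell cycle genes 7 rose in cholic acid and 0 passed for the difference, and of 17 circadian clock genes 1 rose and 1 fell there and 0 passed, where 13.4% of all genes rose and 7.80% fell in that arm.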
